A study of Mus musculus with 28 samples.

Results

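The GDNF family ligands and receptors were followed through the development of mouse peripheral nerve as 7 genes: the ligands Gdnf, Artn (artemin) and Nrtn (neurturin), the ligand-binding coreceptors Gfra1, Gfra2 and Gfra3, and the shared signalling receptor Ret. They were chosen by name as a gene family, and all 7 were among the 41605 gene identifiers of the count table. Of these 7, 6 were among the 17700 genes with enough reads to be tested, and Nrtn was not. Bulk RNA sequencing had been carried out at 7 stages with 4 libraries each, 28 libraries in all, to follow the nerve from before birth to the young adult. The stages, as labelled, were embryonic days (E) 13 and 17 (E13.5 and E17.5 in the series' design text), postnatal days (P) 1, 5, 14 and 24, and P60. All mice were wild-type C57BL/6J and were not perfused, and each stage held 2 libraries from males and 2 from females per the study's methods. Each E13 library came from various nerves of 2 embryos and each E17 library from the sciatic nerves of 2 embryos, whereas each postnatal library came from 1 mouse. From E17 on the nerves were stripped of epineurium and perineurium, the outer wrappings. Age, type of nerve and dissection therefore cannot be told apart between E13 and E17, and in bulk tissue fewer cells of a type and less RNA per cell cannot be told apart at any stage.

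In this family each ligand binds a coreceptor that is anchored to the outer membrane by a lipid and has no signalling domain of its own. GDNF prefers GFRα1, neurturin GFRα2 and artemin GFRα3, and the ligand-bound pair engages RET, a receptor tyrosine kinase that signals through ERK and PI3 kinase. The family is known for survival and axon growth of sensory, sympathetic, enteric and motor neurons. Schwann cells, the glia of peripheral nerve, are a known source of GDNF and artemin and carry GFRα1, and GDNF can also act through NCAM without RET.

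Total counts per library ran from 13899895 to 37662780, at which 3 reads corresponded to at most 0.237 CPM (read counts scaled to a common library total, here with TMM). RPKM, the same values per kilobase of annotated exon, were used to compare genes. A gene was called higher or lower between stages at an adjusted p under 0.05 (edgeR quasi-likelihood test over all 17700 genes, Benjamini-Hochberg) together with a fold change of at least 2, and ± after a log2 fold change is its standard error. Summed Schwann cell markers (5 of 5 detected) ranged from 322 to 657 CPM at E13 and from 3190 to 61900 CPM at the later stages. The later range was mostly that of the myelin gene Mbp, at 1120 ± 73.8 CPM at E17 and 51500 ± 5560 CPM at P14, whereas Sox10, a transcription factor of the lineage, was at 326 ± 24.2 and 468 ± 62.1 CPM (SD, n = 4). Summed neuron markers (11 of 11 detected at every stage) were 2290 to 3800 CPM at E13 and 29.2 to 146 CPM from E17 on. In E13 replicates 1 and 4 and P1 replicate 1 counts followed the GC content of the transcripts, with slopes of -0.93, 0.72 and -0.42 log2 units per 10 points of GC, against -0.16 to 0.20 in the other libraries. Leaving these 3 libraries out changed the call of Ret between E17 and P1 and no other call among the 7 genes.

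**Figure D1:**
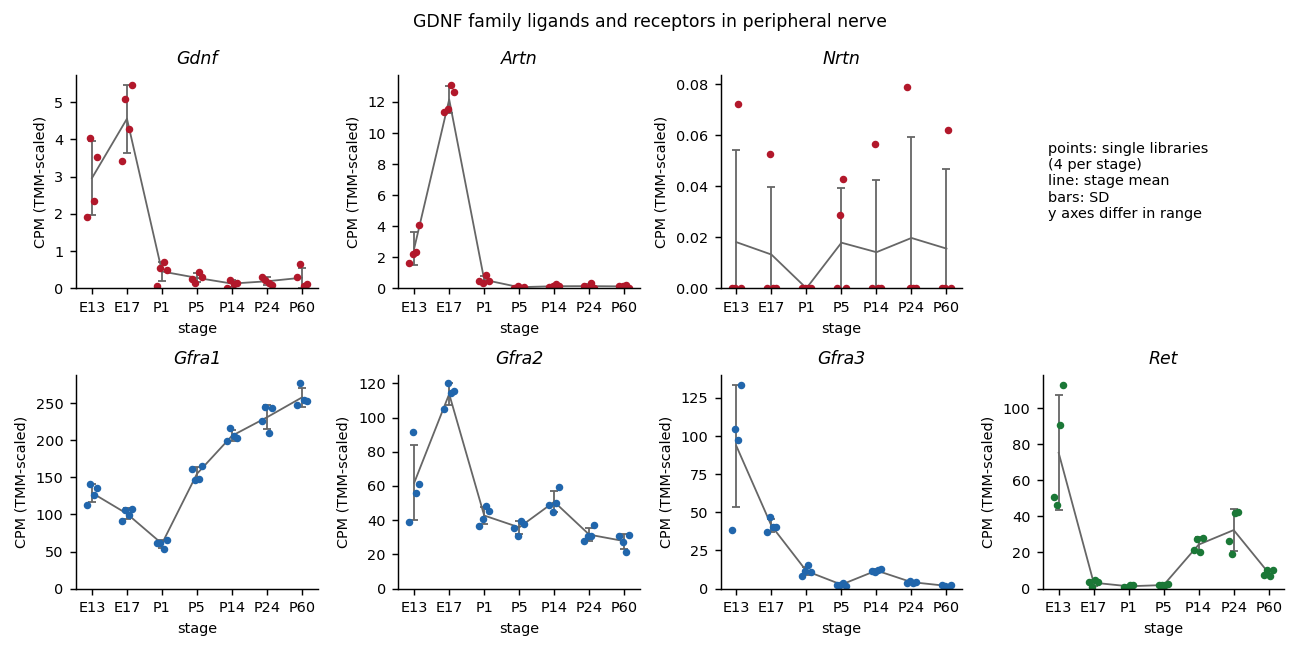
Levels of the 7 genes in CPM (y axis, linear, with its own range in each panel) at the 7 stages (x axis); points are single libraries, lines are means and bars are SD over 4 libraries. Gdnf and Artn were highest at E17 and near the detection limit after birth, Gfra1 was lowest at P1 and highest at P60, Gfra3 and Ret were highest at E13, and Ret had a second high at P14 and P24.

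Gdnf and Artn, the 2 ligands that were detected, had their highest means at E17 and were lower by birth. The RefSeq promoters of both are shown because these genes fell together between E17 and P1. Each window covers 250 bases before and 50 bases after an annotated start site in GRCm38.p6, written 5′ to 3′ on the strand of the gene. The first Gdnf window is at chr15:7809798-7810097 (plus strand), 798 bases upstream of the start in the GENCODE annotation, the second is at chr15:7813477-7813776 (plus strand), 2881 bases downstream of it, and the Artn window is at chr4:117929714-117930013 (minus strand). Capitals mark a TATA box with the letters TATAAA, a GC box with the letters GGGCGG, or a box with the letters CCAAT, each searched on both strands.
Gdnf promoter 1: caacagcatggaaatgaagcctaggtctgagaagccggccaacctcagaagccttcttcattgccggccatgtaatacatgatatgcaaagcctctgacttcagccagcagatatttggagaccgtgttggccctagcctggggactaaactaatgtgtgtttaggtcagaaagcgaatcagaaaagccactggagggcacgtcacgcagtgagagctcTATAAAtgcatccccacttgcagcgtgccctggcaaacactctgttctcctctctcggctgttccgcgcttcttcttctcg
Gdnf promoter 2: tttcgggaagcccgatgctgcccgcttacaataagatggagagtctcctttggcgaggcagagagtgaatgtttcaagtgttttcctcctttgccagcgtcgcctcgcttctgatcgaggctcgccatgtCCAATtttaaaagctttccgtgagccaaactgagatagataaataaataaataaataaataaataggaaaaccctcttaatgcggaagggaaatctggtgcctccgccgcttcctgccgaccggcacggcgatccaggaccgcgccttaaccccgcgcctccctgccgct
Artn promoter: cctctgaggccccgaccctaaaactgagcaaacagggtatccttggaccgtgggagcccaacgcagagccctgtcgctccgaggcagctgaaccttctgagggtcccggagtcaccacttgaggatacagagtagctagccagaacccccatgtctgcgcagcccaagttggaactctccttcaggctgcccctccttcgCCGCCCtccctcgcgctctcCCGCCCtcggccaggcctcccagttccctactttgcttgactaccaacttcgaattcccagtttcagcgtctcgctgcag
The first Gdnf window held 1 TATA box, a motif found in 13.6% of all 32851 RefSeq promoters of this length, and the second held 1 box with the letters CCAAT, found in 37.4%. The Artn window held 2 GC boxes, seen here as CCGCCC on the opposite strand, and 35.7% of promoters held at least 1. TGACG, the core of the CREB site, occurred in the first Gdnf window and in 20.8% of promoters, and the E-box CACGTG occurred in none of these windows and in 7.2% of promoters. No overlap between the capitalised motifs occurred, and the 2 ligands shared none of the 5 motifs searched.

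Gdnf (chromosome 15, 7810846 to 7837575, 3 exons) encodes the founding ligand of the family. Its levels in the 4 E13 libraries were 1.92, 4.04, 2.35 and 3.53 CPM, and in the 4 E17 libraries 3.41, 5.07, 4.27 and 5.47 CPM. The 2 stages overlapped and did not pass the test (log2 fold change 0.63 ± 0.42, adjusted p = 0.202, edgeR). At P1 the levels were 0.0729, 0.541, 0.693 and 0.496 CPM, from 2, 13, 19 and 16 reads. Every P1 library was below every E17 library, and Gdnf fell by 3.32 ± 0.48 on the log2 scale (adjusted p = 5.55e-06). Set against summed reads scaled to depth, the E17 level was 10 times the P1 level, with a 95% counting interval of 7.43 to 13.7. After P1 no comparison of adjacent stages passed the test for Gdnf, and its libraries held 0 to 10 reads from P5 to P60. The P60 level was 0.283 ± 0.265 CPM (SD, n = 4), and replicate 2 held 9 of the 16 reads. Between E17 and P60 Gdnf fell by 4.03 ± 0.55 on the log2 scale (adjusted p = 3.58e-07), and the ratio of the 2 levels was 16.7 (counting interval 10.2 to 29.6). Without P60 replicate 2 the log2 fold change was -4.83.

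Artn (chromosome 4, 117926162 to 117929763, 5 merged exons) encodes artemin, the ligand of GFRα3. It was measured at 1.62, 2.22, 2.31 and 4.11 CPM at E13 and at 11.3, 11.6, 13.1 and 12.6 CPM at E17. All E17 libraries were above all E13 libraries, and the rise was 2.26 ± 0.38 on the log2 scale (adjusted p = 1.03e-05, edgeR). In the same step mean marker sums went from 488 to 3370 CPM for Schwann cells and from 1900 to 16900 CPM for fibroblast-like cells. Those of neurons went from 3360 to 113 CPM and those of macrophages from 256 to 89.6 CPM. The part of these cells in the Artn rise was not tested. At P1 Artn was at 0.474, 0.333, 0.875 and 0.496 CPM, from 8 to 24 reads per library, below every E13 and E17 library. P5 libraries held 0, 4, 1 and 3 reads, and none overlapped with P1. The fall from P1 to P5 was 2.83 ± 0.61 on the log2 scale (adjusted p = 0.00124), and the P1 level was 7.52 times the P5 level with a counting interval of 3.58 to 18.2. From P5 on no library held more than 7 reads, and no further adjacent comparison passed the test. The E17 level was 104 times the P60 level (counting interval 50.2 to 259), and the fitted log2 fold change of -6.62 ± 0.55 (adjusted p = 4.19e-11) rested on 7 reads at P60.

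Nrtn (chromosome 17, 56751325 to 56757530), which encodes neurturin, the ligand of GFRα2, gave 8 reads in all 28 libraries. It had 0 reads in the 4 P1 libraries, which allows up to 0.125 CPM in the shallowest of them, and 1 or 2 libraries with a read at each other stage. Its longest transcript has a GC content of 72.8%, the highest among the 7 genes, against 49.7% to 60.8% for the others. The part of GC content in its low count was not tested. Per kilobase, the sum of the 3 ligands was 1.89 ± 0.619 RPKM at E13, 6.31 ± 0.495 RPKM at E17 and 0.349 ± 0.145 RPKM at P1 (SD, n = 4), and 0.102 to 0.142 RPKM in the mean from P5 to P60.

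Gfra1 (chromosome 19, 58235604 to 58455909, 15 merged exons), the coreceptor of GDNF, was the only coreceptor gene called higher in the adult than before birth. Its RefSeq promoter is shown because it rose between E17 and P60 while its ligand Gdnf fell. The window is at chr19:58455349-58455648 in GRCm38.p6 (minus strand, written on the strand of the gene), with its start site 511 bases downstream of the GENCODE start. Capitals mark a CCAAT box, which lies on the opposite strand and reads ATTGG here.
Gfra1 promoter: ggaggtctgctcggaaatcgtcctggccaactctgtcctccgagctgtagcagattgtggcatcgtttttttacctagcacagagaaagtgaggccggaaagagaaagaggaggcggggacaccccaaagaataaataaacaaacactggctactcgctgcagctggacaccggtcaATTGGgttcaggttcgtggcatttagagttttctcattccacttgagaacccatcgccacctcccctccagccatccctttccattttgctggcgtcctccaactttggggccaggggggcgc
Of the 5 motifs it held the CCAAT box alone, as did the second Gdnf window.

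The Gfra1 level was 91.5, 106, 99.2 and 108 CPM in the E17 libraries and 61.6, 61.0, 53.4 and 66.2 CPM in the P1 libraries. The groups did not overlap, but the log2 fold change of -0.74 ± 0.09 (adjusted p = 2.5e-07, edgeR) was under the fold minimum. At P5 the libraries were at 161, 146, 147 and 165 CPM. This rise of 1.36 ± 0.09 on the log2 scale (adjusted p = 1.26e-11) placed every P5 library above every library of both embryonic stages. In the same step the mean marker sums went from 11100 to 31600 CPM for Schwann cells (mostly Mbp), from 82.5 to 163 CPM for macrophages and from 172 to 321 CPM for vascular smooth muscle cells and pericytes, and their part in the Gfra1 rise was not tested. Later steps were smaller: 206 ± 7.66 CPM at P14, 231 ± 16.4 CPM at P24 and 258 ± 13.2 CPM at P60 (SD, n = 4), with log2 fold changes of 0.41, 0.17 and 0.16. The first was under the fold minimum (adjusted p = 0.000657), and the other two also missed the p threshold (adjusted p = 0.363 and 0.255). From E17 to P60 Gfra1 rose by 1.35 ± 0.09 on the log2 scale (adjusted p = 2.88e-13). The antisense gene Gm16277 overlaps Gfra1 and had 13 reads in all, against 96314 for Gfra1.

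Gfra2 (chromosome 14, 70890120 to 70979838, 10 merged exons), the coreceptor of neurturin, had its highest level at E17. Its level was 38.9, 91.6, 56.0 and 60.9 CPM in the E13 libraries and 105, 120, 115 and 115 CPM in the E17 libraries. The stages did not overlap, and the log2 fold change of 0.88 ± 0.17 (adjusted p = 6.45e-05, edgeR) was under the fold minimum, although it was called at 1.10 when E13 replicate 2 was left out. That library was the highest at E13 in Gfra1, Gfra2 and Gdnf. Its skeletal muscle markers (9 of 9 detected at E13) summed to 822 CPM, against 41.0 to 77.9 CPM in the other E13 libraries, and it was also the highest at E13 in the sums of Schwann cell markers (657 CPM) and fibroblast-like cell markers (2590 CPM). The part of these cells in its levels was not tested. In P1 libraries it was at 36.5, 40.8, 48.3 and 45.3 CPM. It fell by 1.41 ± 0.17 on the log2 scale between E17 and P1 (adjusted p = 3.15e-07), again with no overlap. Gfra2 stayed within 21.6 to 59.3 CPM in all later libraries, and no later adjacent comparison reached the fold minimum. From P5 to P14 the log2 fold change of Gfra2 was 0.505 ± 0.17 (adjusted p = 0.0249, edgeR). From P14 to P24 that of Gfra2 was -0.685 ± 0.171 (adjusted p = 0.0138), and libraries did not overlap in either step. At P60 it was at 27.8 ± 4.45 CPM (SD, n = 4), lower than at E17 by a log2 fold change of -2.04 ± 0.18 (adjusted p = 8.58e-11).

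Gfra3 (chromosome 18, 34689898 to 34720387, 8 exons), the coreceptor of artemin, was called in all 6 adjacent comparisons, 5 times lower and once higher. E13 libraries were at 38.1, 105, 97.3 and 134 CPM and E17 libraries at 37.2, 46.9, 40.4 and 40.3 CPM. E13 replicate 1 lay within the E17 range, so the stages overlapped, and the fall of 1.18 ± 0.25 on the log2 scale (adjusted p = 0.000162, edgeR) was -0.96, under the fold minimum, when E13 replicate 4 was left out. Summed sensory neuron markers (8 of 8 detected at both stages) were 330, 136, 130 and 97.6 CPM in the E13 libraries and 44.4 to 55.1 CPM at E17. Among the E13 libraries this order was not that of Gfra3. Replicate 1 was the lowest in Gfra3 and the highest in the sum, and replicate 4 the highest in Gfra3 and the lowest in the sum. Both are libraries whose counts followed GC content, with slopes of -0.93 and 0.72 log2 units per 10 points. The part of GC content in either order was not tested. Scn9a, a sodium channel gene, made up most of the E17 sum, at 44.2 ± 55.0 CPM at E13 and 48.2 ± 4.65 CPM at E17 (SD, n = 4). Without it, a choice made after its values were seen, the other 7 markers summed to 90.0 to 205 CPM at E13 and 2.20 to 3.43 CPM at E17.

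In P1 libraries Gfra3 was at 8.46, 11.4, 15.4 and 10.7 CPM, below every E17 library (log2 fold change -1.84 ± 0.25, adjusted p = 2.29e-06). P5 libraries were lower again at 2.50, 2.21, 3.68 and 1.91 CPM, without overlap with P1. At P14 they were at 11.7, 10.6, 12.4 and 12.6 CPM. Gfra3 thus rose by 2.21 ± 0.27 on the log2 scale from P5 to P14 (adjusted p = 5.11e-07), to levels that overlapped with P1. By P24 the libraries were at 3.63, 4.97, 3.90 and 4.36 CPM and by P60 at 2.27, 1.52, 1.12 and 2.14 CPM. Both steps down were called without overlap (log2 fold changes -1.48 ± 0.27 and -1.27 ± 0.31, adjusted p = 0.000695 and 0.00493). In the same stages the summed sensory neuron markers were 5.64 to 7.21 CPM at P5, 6.78 to 7.56 CPM at P14 and 6.70 to 8.69 CPM at P24, with 7 of 8 detected at P14 and P24, where Tlx3 was at 0. Without Scn9a the sum was 1.55 to 2.44 CPM at P5, 4.24 to 4.63 CPM at P14, 5.20 to 7.31 CPM at P24 and 9.29 to 12.1 CPM at P60. Between P5 and P14 the mean sums also went from 70.5 to 185 CPM for perineurial cell markers and from 18.3 to 71.6 CPM for epineurial cell markers. The largest parts of these rises were Slc2a1 (32.7 to 114 CPM) and Ly6c1 (8.91 to 44.4 CPM), and the other genes of both lists were also higher. The study also found Slc2a1 in an endothelial cluster. Markers of vascular smooth muscle cells and pericytes went from 321 to 509 CPM. The part of these cells in the Gfra3 rise was not tested.

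Per kilobase the 3 coreceptors changed their order. Gfra3 made up 51.2 ± 10.1% of their summed RPKM at E13, Gfra2 45.2 ± 0.702% at E17, and Gfra1 71.3 ± 2.56% at P5 and 84.4 ± 2.58% at P60 (SD, n = 4). At E13 the RPKM values of Gfra3 and Gfra1 overlapped between libraries, and in replicate 1 Gfra1 had the larger share (40.7% against 37.6%). At P1 Gfra2 (41.7 ± 1.77%) and Gfra1 (38.6 ± 5.17%) overlapped between libraries in RPKM. The Gfra3 share was 19.7 ± 3.69% at P1, 3.26 ± 0.982% at P5, 10.2 ± 0.705% at P14 and 1.58 ± 0.481% at P60. The sum itself was 87.8 ± 26.3 RPKM at E13, 28.9 ± 2.34 RPKM at P1, the lowest, and 55.8 ± 2.55 RPKM at P60.

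**Figure D2:**
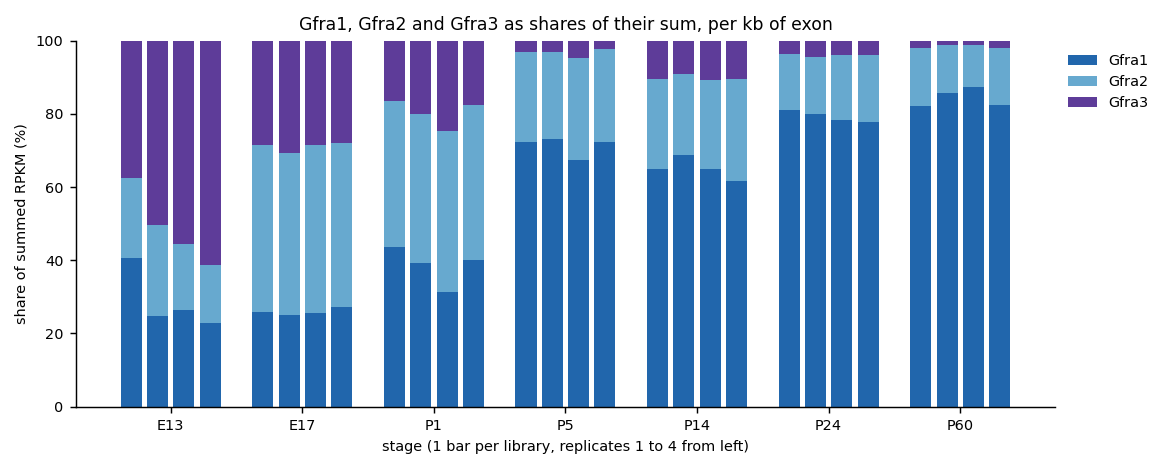
Shares of Gfra1, Gfra2 and Gfra3 in their summed RPKM (y axis, percent) in each of the 28 libraries (x axis, 4 bars per stage). Gfra1 took 67.5% to 73.2% in the P5 libraries, against 31.3% to 43.6% in the P1 libraries.

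Ret (chromosome 6, 118151745 to 118197718, 20 merged exons), the signalling receptor, had 2 separate highs, at E13 and at P14 to P24. E13 libraries were at 51.0, 46.4, 90.7 and 113 CPM and E17 libraries at 3.57, 1.00, 4.93 and 3.46 CPM. The groups were far apart, and Ret fell by 4.52 ± 0.43 on the log2 scale (adjusted p = 8.42e-10, edgeR). Summed sympathetic neuron markers (5 of 5 detected) were 33.4, 71.9, 234 and 438 CPM in the same E13 libraries and 4.12, 3.06, 8.26 and 3.58 CPM in the E17 libraries. E13 replicates 3 and 4 were the highest in both Ret and this sum, as was E17 replicate 3. The GC slopes of the E13 libraries were -0.93, 0.08, 0.12 and 0.72 log2 units per 10 points, which is also the order of this sum. The part of GC content in the order of these libraries was not tested. The summed neuron markers differed in the same direction between E13 and E17, as given above, and the part of neurons in the Ret difference was not tested.

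In P1 libraries Ret was at 0.583, 0.292, 1.90 and 2.23 CPM, which overlapped with E17. The log2 fold change was -1.35 ± 0.45 (adjusted p = 0.023), and the call was lost without E17 replicate 3 (adjusted p = 0.121), without P1 replicate 1 (0.0776) or without P1 replicate 2 (0.0822). Sympathetic neuron markers summed to 0.219, 0.416, 3.97 and 4.03 CPM in the same P1 libraries. Both measures were low in replicates 1 and 2 and high in replicates 3 and 4. The GC slopes of replicates 1 to 4 were -0.42, 0.05, 0.18 and 0.2 log2 units per 10 points. The part of these markers and of GC content in the order of the Ret levels was not tested.

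P5 libraries were at 1.75, 1.72, 1.97 and 2.31 CPM of Ret and P14 libraries at 21.5, 27.5, 20.3 and 28.2 CPM. All P14 libraries were above all P5 libraries, with a rise of 3.65 ± 0.43 on the log2 scale (adjusted p = 1.93e-07). Neuron markers summed to 32.3 to 42.7 CPM at P5 and 29.2 to 39.2 CPM at P14, and sympathetic neuron markers to 0.0859 to 0.385 CPM and 0.307 to 1.14 CPM, with Dbh, which marks noradrenaline synthesis, at 0.105 ± 0.0329 and 0.349 ± 0.186 CPM (SD, n = 4). Single neuron markers differed in direction within this sum, with the neurofilament gene Nefl at 11.4 ± 1.46 CPM at P5 and 4.83 ± 0.996 CPM at P14, and Stmn2, a growth cone gene, at 5.72 ± 0.719 and 8.53 ± 1.73 CPM. Schwann cell markers, mostly Mbp, summed to 29600 to 34600 CPM at P5 and 48400 to 61900 CPM at P14, and perineurial cell markers (2 of 2 detected) to 65.6 to 77.9 CPM and 151 to 223 CPM. Epineurial cell markers (4 of 4 detected) summed to 18.3 CPM and 71.6 CPM in the mean, and markers of vascular smooth muscle cells and pericytes (5 of 5 detected) to 296 to 379 CPM and 472 to 567 CPM. As given above, Slc2a1 and Ly6c1 were the largest parts of the perineurial and epineurial rises. The part of any of these cell types in the Ret rise was not tested.

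Ret in the P24 libraries was at 26.1, 19.1, 42.0 and 42.4 CPM, a wider spread that overlapped with P14 (log2 fold change 0.42 ± 0.37, adjusted p = 0.684). Several marker lists followed the same order over these libraries. Perineurial cell markers summed to 298, 135, 334 and 378 CPM, fibroblast-like cell markers (5 of 5 detected) to 12950, 7114, 14080 and 14800 CPM, and macrophage markers (4 of 4 detected) to 125, 84.3, 133 and 142 CPM. Replicate 2 was the lowest in all of these, as in the sums of epineurial and endothelial cell markers, and Schwann cell markers ran in the reverse order, at 47740, 51650, 45520 and 40030 CPM. The part of these cells in the spread of Ret was not tested. By P60 Ret was at 7.24, 10.2, 6.84 and 10.1 CPM, below every P24 library (log2 fold change -1.92 ± 0.39, adjusted p = 0.000776), and no cell type list was tested for a part in this fall. From P24 to P60 the mean sum of perineurial cell markers went from 286 to 417 CPM. Macrophage markers summed to 84.3 to 142 CPM at P24 and 82.6 to 113 CPM at P60. The mean sum of fibroblast-like cell markers went from 12200 to 5850 CPM. Within this list Col3a1 fell from 6870 to 1160 CPM, Col1a1 from 2590 to 934 CPM and Lum from 475 to 331 CPM. Dcn rose from 2140 to 3240 CPM and Pdgfra from 153 to 182 CPM. Ret at P60 was still above every E17 library, by 1.39 ± 0.41 on the log2 scale (adjusted p = 0.00457). Per kilobase, Ret stood at 6.6% to 15.3% of the summed RPKM of the coreceptors in the E13 libraries, at 0.62 to 0.721% in the mean from E17 to P5, at 6.21 ± 0.928% at P14, at 9.07 ± 3.42% at P24 and at 2.26 ± 0.388% at P60.

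**Figure D3:**
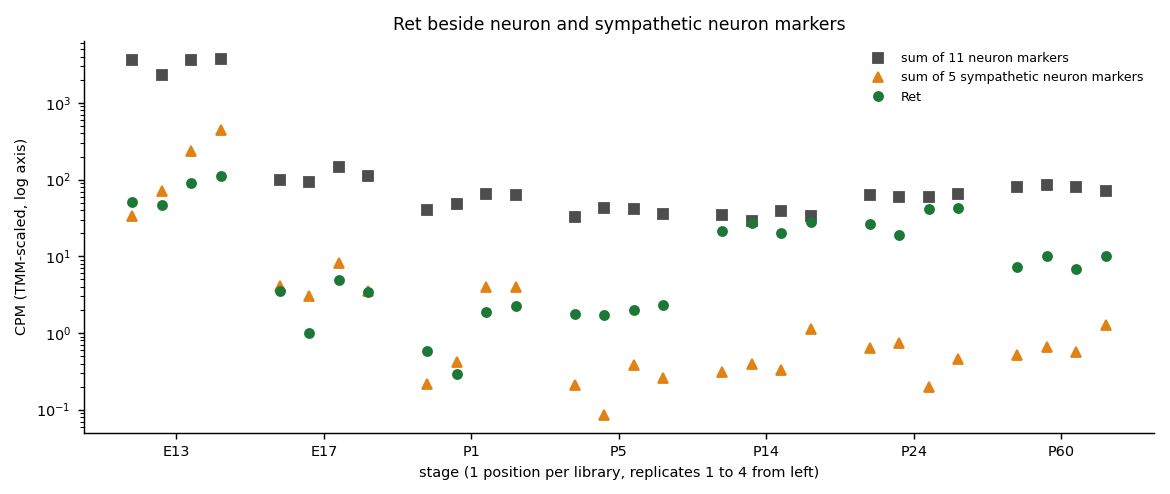
Ret, the sum of 11 neuron markers and the sum of 5 sympathetic neuron markers in CPM (y axis, log scale) in each of the 28 libraries (x axis, 4 positions per stage). From P5 to P14 Ret went from 1.72 to 2.31 CPM up to 20.3 to 28.2 CPM, with the sympathetic sum at 0.0859 to 0.385 CPM and 0.307 to 1.14 CPM.

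All 6 tested genes of the family changed along the timeline in the test of the 7 stages together (adjusted p from 5.07e-17 to 8.51e-11), and 70% of all tested genes did so. Between E13 and E17, 1 of the 6 was called higher and 2 lower, against 14.2% and 21.2% of all tested genes. Between E17 and P1, 5 of 6 were called lower and 0 higher, against 5.41% lower and 6.31% higher among all tested genes, and the median log2 fold change was -1.63 for the 6 genes and 0.00 for all. In the same step the mean marker sum of neurons went from 113 to 54.2 CPM. The sensory neuron sum went from 51.1 to 12.8 CPM (7 of 8 detected at P1, where Scn10a was at 0), though from 2.89 to 2.12 CPM without Scn9a. The endothelial cell sum (4 of 4 detected) went from 282 to 155 CPM. The red blood cell sum (5 of 5 detected) went from 581 to 118 CPM. Other sums rose, from 3370 to 11100 CPM for Schwann cells, a rise mostly of Mbp, and from 131 to 172 CPM for vascular smooth muscle cells and pericytes. Fibroblast-like cell markers went from 16900 to 15600 CPM and macrophage markers from 89.6 to 82.5 CPM. The remaining lists were lower at P1 in the mean. The part of any of these cells in the calls was not tested. Of the 6 genes only Gfra1 was not called lower, and 4 of 6 were called lower without the 3 libraries that followed GC content, when the Ret call was lost.

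Between P1 and P5, 1 of 6 was called higher (Gfra1, 4.05% of all tested genes) and 2 lower (Artn and Gfra3, 1.79% of all). From P5 to P14 Gfra3 and Ret were called higher, 2 of 6 against 7.11%, and 0 lower against 4.91%. From P14 to P24 only Gfra3 was called among the 6, which is 0 higher against 1.51% and 1 lower against 1.14%. From P24 to P60 Gfra3 and Ret were called lower, 2 of 6 against 3.41%, and 0 higher against 2.55%. Over the whole span from E17 to P60, all 6 were called, Gfra1 and Ret as higher and the others as lower, against 39.7% of all tested genes called in either direction.

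**Figure D4:**
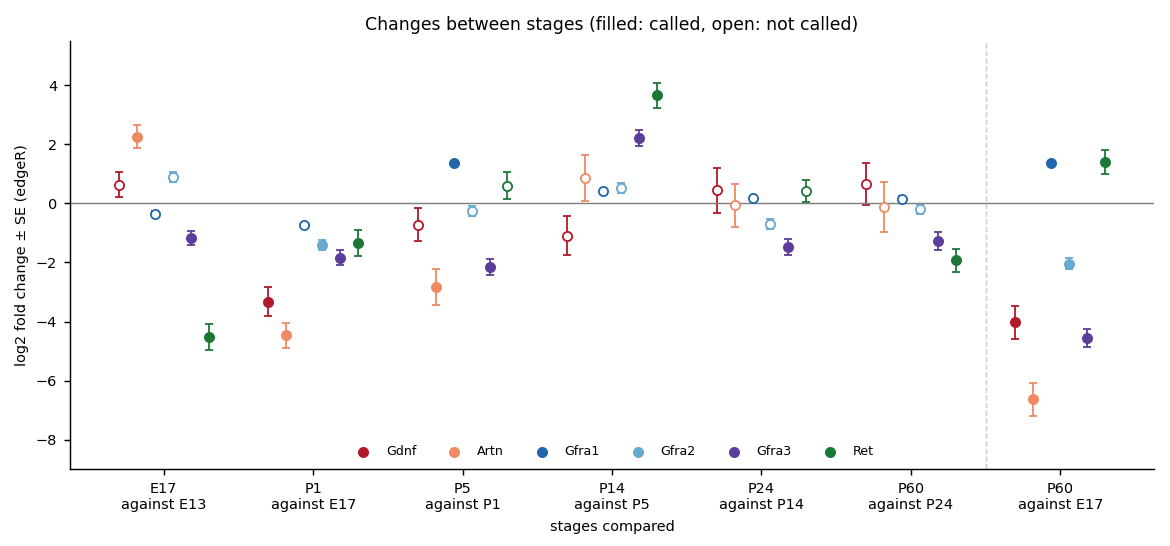
Log2 fold changes of the 6 tested genes (y axis; bars are standard errors, edgeR) for 6 pairs of adjacent stages and, right of the dashed line, P60 against E17 (x axis); filled points were called. In P1 against E17 all 6 points lie below 0, from -4.46 for Artn to -0.74 for Gfra1.

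Among the other genes of the family, Pspn (persephin) gave 5 reads, Gdf15 14 reads and Gfral, the receptor of GDF15, 0 reads in all 28 libraries. Gfra4, the coreceptor of persephin, was at 6.84 ± 2.14 CPM at E13 and 1.18 ± 0.214 CPM at E17 (SD, n = 4). It was lower at E17 by a log2 fold change of -2.53 ± 0.28 (adjusted p = 1.58e-08, edgeR) and was not called in any later adjacent step. Among other receptors for these ligands, Ncam1, the RET-independent receptor of GDNF, rose from 225 ± 41.3 to 638 ± 29.5 CPM between E13 and E17 and fell to 90.1 ± 9.37 CPM by P60 (log2 fold change from E17 -2.82 ± 0.12, adjusted p = 2.85e-17). Sdc3, a heparan sulfate proteoglycan that binds GDNF, was at 287 ± 11.2 CPM at E17 and 474 ± 54.3 CPM at P60 (0.72 ± 0.18, adjusted p = 0.00103, under the fold minimum). Sorl1, a sorting receptor for GDNF and its coreceptor, fell from 47.2 ± 4.67 CPM at E13 to 7.26 ± 0.613 CPM at E17 (-2.70 ± 0.22, adjusted p = 5.7e-11), the step in which Ret fell.

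Downstream of RET, 21 of 21 listed adaptors and relay proteins were tested. Between E17 and P60, 4 were called higher and 3 lower, against the 39.7% of all tested genes called in either direction, with a median log2 fold change of 0.18 against 0.00 for all. Among those at 10 CPM or more, Pik3r1, a regulatory subunit of PI3 kinase, rose from 157 ± 4.54 to 501 ± 18.4 CPM (1.68 ± 0.19, adjusted p = 1.69e-08, edgeR), and the docking protein Gab1 rose from 139 ± 12.1 to 308 ± 28.6 CPM (1.15 ± 0.11, adjusted p = 3.98e-10). Grb10, an imprinted adaptor that binds several receptor kinases, fell from 1001 ± 20.1 to 48.5 ± 6.50 CPM (-4.37 ± 0.16, adjusted p = 5.45e-19), and the kinase gene Src fell from 48.1 ± 4.90 to 19.8 ± 1.66 CPM (-1.28 ± 0.22, adjusted p = 1.37e-05). Of 10 tested target and feedback genes of the ERK pathway, 0 were higher and 6 lower at P60 than at E17, against the 39.7% of all tested genes called in either direction, with a median log2 fold change of -1.24. Dusp6, an ERK phosphatase, fell from 159 ± 9.06 to 36.4 ± 4.61 CPM (-2.13 ± 0.13, adjusted p = 2.71e-14), and Etv5, a transcription factor induced by ERK, from 58.5 ± 2.79 to 15.0 ± 1.68 CPM (-1.96 ± 0.16, adjusted p = 1.63e-11). Between E17 and P1, the step in which the ligands fell, 1 of these 10 was called higher and 0 lower, against 6.31% and 5.41% of all tested genes. Between P1 and P5, 0 were higher and 3 lower (4.05% and 1.79% of all), and between P5 and P14, when Ret rose, 0 were higher and 4 lower (7.11% and 4.91% of all). Many receptors share these relay proteins and targets.

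The genes whose levels followed each member most closely over the 28 libraries were found by Pearson's r of log2 CPM among 13339 genes, as a description of libraries that share stage and depth. For Gdnf these were Speg (r = 0.93), Tmem138 and Zcchc3 (both 0.90), and for Artn St3gal1 (0.94), Zcchc3 (0.93) and Syt7 (0.92). Gfra1 was followed by Abcg1 (0.97), a sterol transporter, Entpd1 and Sirpa (both 0.96). For Gfra2 they were Hey1 (0.93), a Notch target gene, Frem2 (0.93) and L1cam (0.92), for Gfra3 Adamts15 (0.93), Tspan7 and Zfp629 (both 0.92), and for Ret Plekha6 (0.93), Myo16 and Rimbp2 (both 0.92). Speg and Hey1 also came first with Spearman's rho and without the E13 libraries, and the first gene changed in at least 1 of these 2 settings for the other 4. Within the family, r over the 28 libraries was 0.89 between Gdnf and Artn, 0.80 between Artn and Gfra3, 0.83 between Artn and Gfra2, 0.77 between Gdnf and each of Gfra2 and Gfra3, 0.81 between Gfra2 and Gfra3, -0.45 between Gdnf and Gfra1, and 0.56 between Gfra1 and Ret.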

How the data were processed

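The authors deposited unnormalized read counts for each gene. They had prepared stranded mRNA libraries, sequenced single-end reads, aligned them with STAR 2.6.1c and counted them with featureCounts. The submitters' processing notes name the build GRCm38.p5. Strand and multi-mapping settings of the counting were not given in the sources used here, so reads of genes that overlap could not be separated. Symbols, coordinates and exon lengths came from GENCODE M21 (GRCm38), in which 41519 of 41605 identifiers (99.79%) were found. Promoters came from RefSeq, whose table held 4 of the 7 members. Gfra2, Gfra3 and Ret were not among them.

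Genes were filtered with filterByExpr by stage, which left 17700. Libraries were scaled by TMM and fitted together in edgeR 4.0.16 (R 4.3.3) with stage as the only term. Comparisons were the 6 adjacent pairs, P60 against E17 and all 7 stages. Log2 CPM for likeness used a prior count of 2. SD and n refer to 4 libraries per stage, labelled as separate samples, and the labels do not give the sex of single libraries. Of 42 pairs of replicates none agreed within sampling noise (chi-square per degree of freedom 5.21 to 293). Counting intervals and the floor of 3 reads leave out all error other than counting, since no molecular identifiers were used and reads may be copies of 1 molecule.

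The members, lists, comparisons and alternatives were chosen with earlier results of these data known. Named genes were all members, other family and receptor genes, up to 2 rises and 2 falls between E17 and P60 among called adaptor and ERK genes of at least 10 CPM, and the 3 genes most like each member. Alternatives were other scalings, filters, tests (DESeq2 1.42.0, limma-voom with limma 3.58.1), sets of libraries, a GC correction, the replicate block, leaving out single replicates and dropping the fold change minimum. No column was left unused, and other data of the study were not analysed here.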

Additional observations from a re-analysis of the deposited data

How the results depend on the processing

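The numbers of members called moved by over 1.5 times only with no fold change minimum, which gave 5 members between E13 and E17, 4 between P5 and P14 and 2 between P14 and P24. Of 869 log2 fold changes of members under an alternative, 848 kept their direction and their side of the thresholds, 7 were no longer called, 7 became called and 7 changed sign. The sign changes were in Artn and Gdnf at a few reads per library. Artn between P14 and P24 gave 0.00 with library size only and -1.28 to 0.43 over all 20 alternatives. Artn between P24 and P60 gave -0.52 to 1.09, and Gdnf between P24 and P60 gave -0.14 to 1.01, each over 20 alternatives. Of the 7 calls lost, 6 were Ret between E17 and P1. Besides the 3 left-out replicates, these were limma-voom (adjusted p = 0.0805), a fit on only those stages (0.0951) and a fit without the 3 libraries that followed GC content (0.0899). The range over its 21 alternatives was 0.00496 to 0.121, and the cause was not tested. With library size only, the median of all genes lay at -0.33 (E17 against E13), -0.11 (P1 against E17), -0.19 (P5 against P1), -0.17 (P14 against P5) and -0.31 (P60 against E17). Replicate numbers were not treated as pairs in the main fit. Of 28 same-numbered pairs of libraries, 9 had correlated deviations over 0.1 (range -0.059 to 0.292). Most of the 28 correlations were above 0, and their source was not tested. The replicate block left the numbers of members called at 3, 5, 3, 2, 1, 2 and 6 in the 7 comparisons in the order of age, P60 against E17 last. Depth limits the ligands after birth, where 3 reads are 0.125 to 0.237 CPM.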
